A study of Mus musculus with 6 samples.

Results

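The ErbB receptors and their ligands were described in 6 mouse gliomas profiled on Illumina bead arrays. The list held 10 genes, the receptors Egfr, Erbb2, Erbb3 and Erbb4 and the ligands Areg, Ereg, Hbegf, Nrg1, Tgfa and Btc, and every probe whose platform symbol was one of them was taken. It covered 9 of the 19057 genes with a probe of 1 symbol, through 19 probes, since no probe carried the symbol Areg. The tumours fell into HoxA5 tumours (n = 2) and control tumours that received mCherry (n = 4), and the question of the study was whether raised Hoxa5 makes such gliomas more aggressive.

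Both groups were made in adult Ntva-Ink4a/Arf+/- or Ntva-Ink4a/Arf-/- mice of mixed FVB/N, C57BL6, BALB/C and 129 background, and the labels do not tell which mouse had which genotype. The right frontal cortex received a mixture of DF1 cells, chicken fibroblasts that shed RCAS virus, of which some carried PDGFb and the others HoxA5 or the fluorescent protein mCherry. The virus enters only cells that carry the tva receptor, which in Ntva mice is driven by the nestin promoter of neural progenitors, and the RNA came from tumour tissue with the host cells in it. The labels do not state that each tumour came from its own mouse. Xist and the Y-linked Eif2s3y read 1 male and 1 female HoxA5 tumour and 2 of each sex among the mCherry tumours, so each group held tumours of more than 1 mouse, and p-values measure the spread among these 6 samples.

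ErbB proteins are receptor tyrosine kinases that pair when a ligand of the EGF family binds. Egfr binds Tgfa, Areg, Hbegf, Btc, Ereg and Egf, Erbb3 and Erbb4 bind neuregulins, and Erbb2 has no known soluble ligand of its own and acts as a partner. Most ligands are made as membrane proteins and are released by ADAM proteases. Amplified or mutant EGFR is a well-known lesion of human glioblastoma, whereas the tumours here were driven by PDGFb.

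None of the ErbB genes that could be tested differed between HoxA5 and mCherry tumours past the threshold. Of the 10 members, 5 (Egfr, Erbb2, Hbegf, Nrg1 and Tgfa) met the detection filter, which asked for 2 or more arrays with a detection p under 0.05. In limma, 0 of these 5 passed at an adjusted p under 0.05 over all 12242 genes tested, against 5.85% of all genes. At an unadjusted p under 0.05, 1 of the 5 (Tgfa) passed, against 24.6% of all genes. Both HoxA5 tumours lay outside the mCherry range for 1 of the 5 (Erbb2), against 35.5% of all genes. Their median difference was 0.28 on the log2 scale, 3 higher and 2 lower in HoxA5 tumours, beside a median of 0.072 over all genes. The tumours themselves differed widely, with 148 genes higher and 568 lower in HoxA5 tumours.

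**Figure D1:**
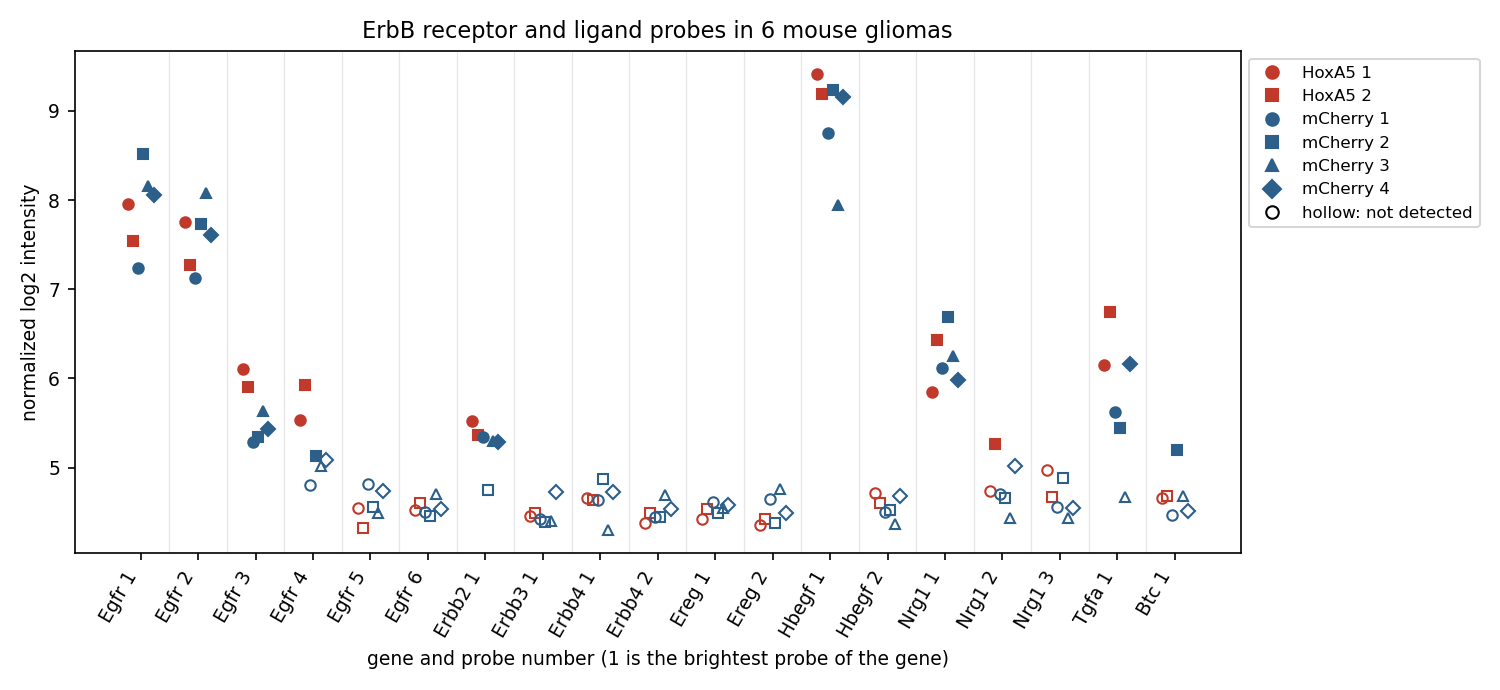
Normalized log2 intensity of the 19 probes of ErbB receptors and ligands (x axis, by gene and probe number) in each of the 6 tumours; filled points were detected and hollow points were not. Most hollow points sit below 5, while Hbegf 1 lies between 7.95 and 9.42 and Egfr 1 between 7.24 and 8.52.

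Median intensities of the arrays ran from 136.1 to 166.8, and each array detected 19950 to 21904 of 45281 probes. The delivered HoxA5 could not be checked. The Hoxa5 probe was detected on 0 of 6 arrays, and it is not known here whether its sequence lies in the delivered gene, so its absence says nothing about delivery. For Pdgfb, the gene delivered to both groups, 1 probe was detected on all 6 arrays and the other on 0. The detected probe was at 9.48 ± 0.146 (SD, n = 2) in HoxA5 and 9.16 ± 0.724 (SD, n = 4) in mCherry tumours, with overlapping groups. It is likewise not known whether this probe reads the delivered gene or that of the host, so its level says nothing about delivery. The proneural glioma and oligodendrocyte progenitor list had 7 of its 8 genes measured. Its list mean was 10.52 and 10.82 in HoxA5 tumours and 9.05 to 10.59 in mCherry tumours. Neuron markers stood far apart between the groups, with list means of 9.63 and 8.76 in HoxA5 tumours against 11.31 to 12.86 in mCherry tumours. The mCherry 4 tumour had the lowest neuron value of its group (11.31) and the highest proliferation value (9.14).

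Egfr, the receptor of the EGF ligands, was represented by its brightest probe (probe 1), at 7.96 and 7.55 in the HoxA5 tumours and at 7.24, 8.52, 8.16 and 8.05 in mCherry 1 to 4. Both HoxA5 values lay inside the mCherry range. HoxA5 tumours averaged 7.75 ± 0.292 (SD, n = 2), mCherry tumours 7.99 ± 0.541 (SD, n = 4), and the difference was -0.24 (SE 0.406, 95% confidence interval -1.15 to 0.67, limma adjusted p = 0.747). That interval spans from a 2.22-fold lower to a 1.59-fold higher level in HoxA5 tumours.

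Of the 6 Egfr probes 4 met the detection filter, and none of these passed. The annotation ties probe 1 and probe 5 to one RefSeq transcript of Egfr and probes 3 and 4 to the other, while probe 2 has no transcript record and probe 6 is tied to a cDNA clone. Probe 2 was at 7.76 and 7.27 in the HoxA5 tumours and from 7.13 to 8.08 in the mCherry tumours, and its groups overlapped as those of probe 1 did. Probe 3 was at 6.11 and 5.90 in HoxA5 tumours and at 5.29, 5.34, 5.63 and 5.43 in mCherry 1 to 4. Probe 4 was at 5.54 and 5.92 in HoxA5 tumours and at 4.81, 5.13, 5.02 and 5.08 in mCherry 1 to 4, where it was detected on 1 of 4 arrays.

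For probes 3 and 4 both HoxA5 tumours lay above all mCherry tumours, as 17.6% of all tested probes did. In all, 3 of the 8 member probes that met the filter (these and the Erbb2 probe) lay outside the mCherry range, against 33.2% of probes. In a limma fit of all 19479 detected probes, 4.73% of which passed, the difference of probe 3 was 0.58 (SE 0.292, adjusted p = 0.271) and that of probe 4 was 0.72 (SE 0.272, adjusted p = 0.156), and neither passed. Probes 5 and 6 were detected on 0 arrays. Whether the probes differed from one another in their response was not tested.

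**Figure D2:**
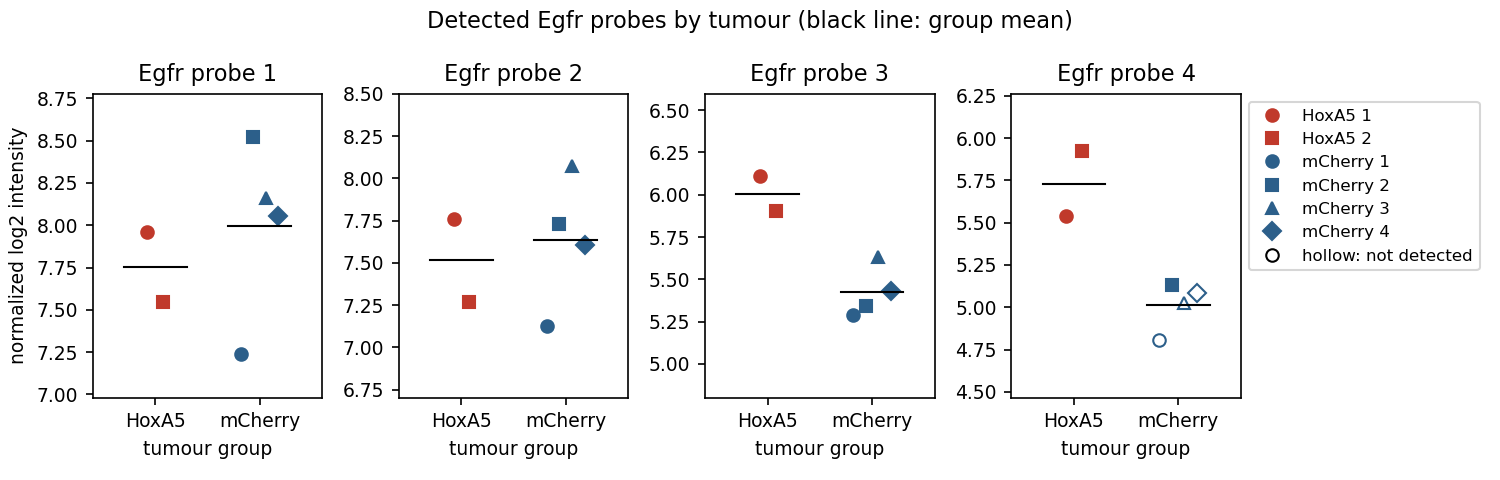
Normalized log2 intensity of the 4 detected Egfr probes by tumour group, with a black line at each group mean and hollow points where the probe was not detected. The groups overlap for probes 1 and 2, while both HoxA5 tumours lie above the 4 mCherry tumours for probes 3 and 4.

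Erbb2, the partner receptor, was dim. Its 1 probe was at 5.52 and 5.37 in HoxA5 tumours and at 5.34, 4.75, 5.30 and 5.29 in mCherry 1 to 4, and it was not detected in mCherry 2 alone. The HoxA5 tumours lay above the mCherry tumours, by a margin of 0.03 between HoxA5 2 and mCherry 1, as both HoxA5 tumours did for 18.3% of all genes. HoxA5 tumours averaged 5.45 ± 0.108 (SD, n = 2) against 5.17 ± 0.278 (SD, n = 4), with a difference of 0.28 (SE 0.284, 95% confidence interval -0.36 to 0.92, limma adjusted p = 0.577). Without mCherry 2 it was 0.14.

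Erbb3 and Erbb4, the neuregulin receptors, gave no signal above background on any array. Detection p-values ran from 0.244 to 0.907 for the Erbb3 probe, and from 0.0962 to 0.995 and from 0.259 to 0.922 for the 2 Erbb4 probes. Their normalized values lay between 4.30 and 4.87 in every tumour, and no fold is given. Erbb4 is known in cortical interneurons, whose 8 markers were all measured, with a list mean of 10.79, 11.09, 11.50 and 9.55 in mCherry 1 to 4 and of 8.60 and 7.10 in the HoxA5 tumours. An undetected probe does not show that a transcript was missing. All probes of the neuron genes Snap25 and Nefl were also at background on all 6 arrays, and Egfr probe 5 was undetected beside a bright probe tied to the same transcript.

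Tgfa, a ligand of Egfr, was the 1 tested member with an unadjusted p under 0.05. It was at 6.15 and 6.74 in HoxA5 tumours and at 5.62, 5.45, 4.67 and 6.16 in mCherry 1 to 4, and in mCherry 3 it was not detected. Its level was highest in HoxA5 2 and lowest in mCherry 3, and the groups overlapped because mCherry 4 stood level with HoxA5 1. The means were 6.45 ± 0.416 (SD, n = 2) and 5.48 ± 0.619 (SD, n = 4). The difference was 0.97 (SE 0.424, 95% confidence interval 0.019 to 1.92, 1.96-fold), with an unadjusted p of 0.0464 and an adjusted p of 0.195 in limma. It did not pass, and without mCherry 4 it was 1.21 (adjusted p = 0.0560). Without background correction the difference was 0.33 and in the authors' deposited values 0.35, both over 1.5 times smaller and below those of Hbegf (0.41 and 0.42), and it did not pass there either.

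Hbegf, another ligand of Egfr, was detected on all 6 arrays. It was at 9.42 and 9.19 in HoxA5 tumours and at 8.75, 9.24, 7.95 and 9.16 in mCherry 1 to 4. The HoxA5 tumours overlapped with mCherry 2, and mCherry 3 was again the lowest. HoxA5 tumours averaged 9.31 ± 0.160 (SD, n = 2) against 8.77 ± 0.590 (SD, n = 4), with a difference of 0.53 (SE 0.390, 95% confidence interval -0.34 to 1.41, limma adjusted p = 0.430). Without mCherry 3 the difference was 0.26. A second probe of Hbegf was detected on 0 arrays.

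The proliferation list and the progenitor and proneural list shared the low of these ligands in mCherry 3. The proliferation list, with 6 of its 8 genes measured, had means of 9.99 and 10.31 in HoxA5 tumours and of 7.66, 7.82, 6.29 and 9.14 in mCherry 1 to 4, so mCherry 3 was lowest and mCherry 4 highest of its group, as for Tgfa. The progenitor and proneural list was likewise lowest in mCherry 3, at 9.05, and at 9.76, 10.46 and 10.59 in mCherry 1, 2 and 4. Other tumours were ordered otherwise. Hbegf was highest of the mCherry group in mCherry 2 (9.24), where both lists were highest in mCherry 4. Tgfa was higher in mCherry 1 (5.62) than in mCherry 2 (5.45), unlike both lists. The low in mCherry 3 was not particular to these lists. The microglia and macrophage list (9.39) and the endothelial and mural list (7.32) were also lowest of the mCherry group there. So were the lists of ligand release, receptor restraint and adaptors described below. The remaining marker lists were lowest in mCherry 1 or mCherry 4. The part of the list differences in the levels of Tgfa and Hbegf was not tested.

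**Figure D3:**
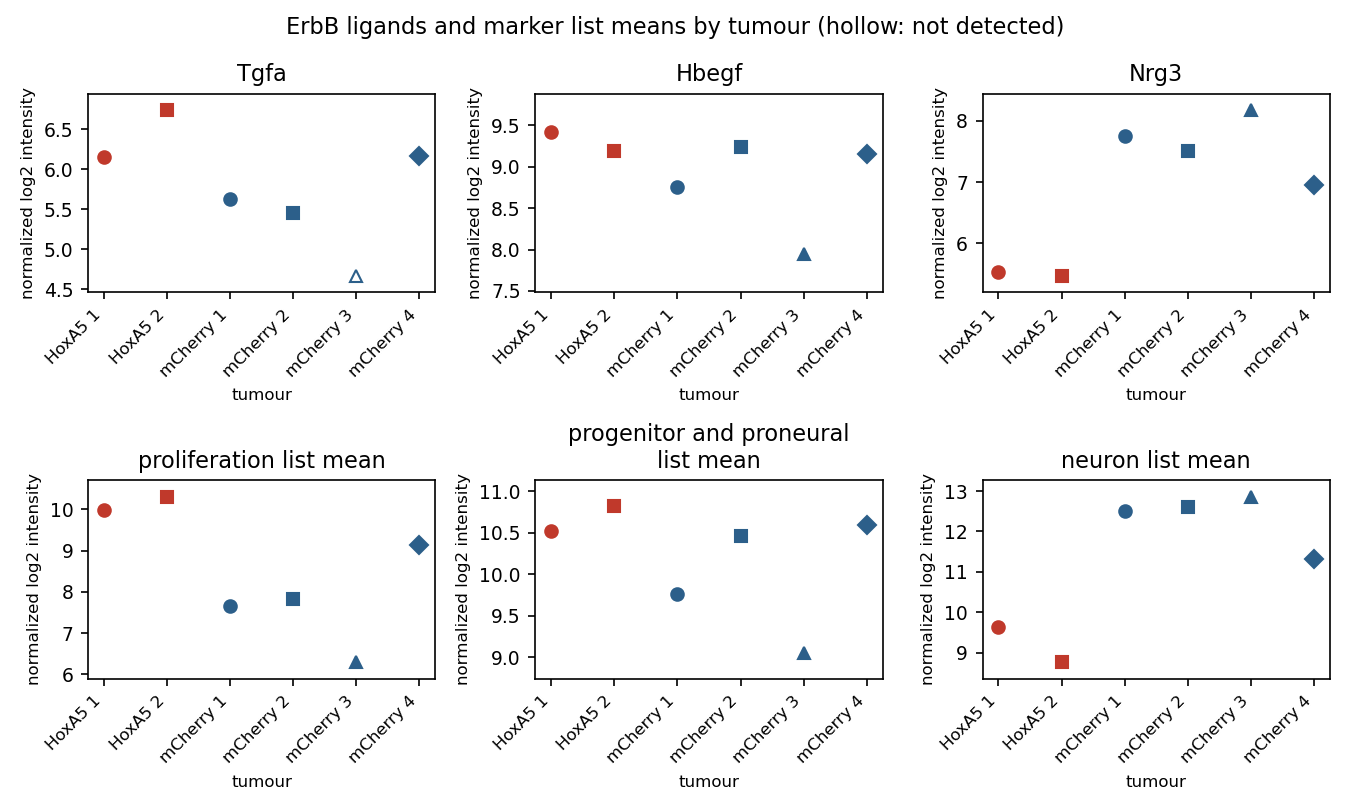
Normalized log2 intensity of Tgfa, Hbegf and Nrg3 (upper row) and of the proliferation, progenitor and neuron list means (lower row) in each tumour, HoxA5 in red and mCherry in blue. Tgfa is lowest in mCherry 3 (4.67, not detected), where the proliferation mean is also lowest (6.29), and Nrg3 is lowest in the 2 HoxA5 tumours, where the neuron mean is lowest.

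Nrg1, the founding neuregulin, was measured by 1 of its 3 probes. It was at 5.85 and 6.43 in HoxA5 tumours and at 6.11, 6.69, 6.25 and 5.98 in mCherry 1 to 4, and the groups overlapped, with HoxA5 1 just below the lowest mCherry tumour. The difference was -0.12 (SE 0.349, 95% confidence interval -0.90 to 0.66, limma adjusted p = 0.860), from means of 6.14 ± 0.407 (SD, n = 2) and 6.26 ± 0.308 (SD, n = 4). Its sign turned without HoxA5 1 (0.17) and without mCherry 2 (0.026). The second probe was detected in HoxA5 2 alone and the third on 0 arrays, and the array probes do not tell the many Nrg1 isoforms apart.

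Btc and Ereg, which bind Egfr and Erbb4, were at or near background. The Btc probe was detected in mCherry 2 alone, at 5.20, and at 4.47 to 4.68 elsewhere, below the detection filter. The 2 Ereg probes were detected on 0 arrays, with values from 4.36 to 4.76. In all, 9 of the 19 member probes were detected on no array and 5 on all 6.

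Outside the 10 members, the ligand that differed was Nrg3, a neural neuregulin that binds Erbb4. It was at 5.52 and 5.47 in HoxA5 tumours and at 7.76, 7.50, 8.18 and 6.96 in mCherry 1 to 4. Every HoxA5 value lay below every mCherry value, as for 17.2% of all genes, and mCherry 4 was the lowest of its group. Nrg3 was lower by 2.10 on the log2 scale, 4.30-fold (SE 0.398, limma adjusted p = 0.0198), where 4.64% of all genes passed as lower. A second Nrg3 probe, detected on 3 mCherry arrays and 0 HoxA5 arrays, had a difference of -1.37 (adjusted p = 0.182 among all probes).

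Several marker lists were lower in HoxA5 tumours beside Nrg3. All 7 measured neuron genes passed as lower (median -3.29), against 4.64% of all genes. So did 6 of 8 inhibitory interneuron genes (median -3.30) and 6 of 7 genes of myelinating oligodendrocytes (median -2.48). Of choroid plexus and ependyma genes 3 of 6 passed as lower (median -2.45), and of astrocyte genes 2 of 8 (median -0.74). The neuron mean was 12.50, 12.59, 12.86 and 11.31 in mCherry 1 to 4. In bulk tissue, fewer cells of a type and less RNA per cell cannot be told apart, and the part of these differences in the level of Nrg3 was not tested. The call of Nrg3 was lost without HoxA5 1 (adjusted p = 0.132), HoxA5 2 (0.177), mCherry 1 (0.0659) or mCherry 2 (0.0539), at differences from -2.05 to -2.14. Its difference was -0.93 when no background was corrected and -0.97 in the authors' deposited values, where it passed. Of the other ligands of the list, Epgn (epigen) differed by 0.55 (adjusted p = 0.256) and Egf by 0.14 (adjusted p = 0.783). Nrg4 was below the detection filter and no probe carried the symbol Nrg2.

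The 8 measured genes of ligand release and processing, which include Timp3, an inhibitor of Adam17, all had higher means in HoxA5 tumours, as 54.8% of all genes did. In limma 0 of 8 passed at an adjusted p under 0.05, against 5.85% of all genes, and 3 at an unadjusted one, against 24.6%. Their median difference was 0.74, beside 0.072 over all genes. Rhbdf1, the inactive rhomboid iRhom1 that serves maturation of Adam17, was at 12.23 and 11.83 in HoxA5 tumours and at 10.32, 10.78, 9.66 and 11.71 in mCherry 1 to 4, so that mCherry 4 came within 0.12 of HoxA5 2. Its difference was 1.41 (SE 0.470, limma adjusted p = 0.108). Adam17, the protease that releases Tgfa and Hbegf, differed by 0.94 (adjusted p = 0.168). Adam10, which releases Egf and Btc, differed by 1.02 (adjusted p = 0.175). Its probe was detected on 2 of the 4 mCherry arrays, and mCherry 4 (6.27) lay above HoxA5 1 (6.22). A second Adam10 probe was detected on 0 arrays. Rhbdf1, Adam17 and Adam10 passed without mCherry 4, at 1.79, 1.15 and 1.35 (adjusted p = 0.00625, 0.0466 and 0.0133), where 19.9% of all genes passed. They did not pass when any other array was left out, with adjusted p-values from 0.141 to 0.429 for Rhbdf1, 0.218 to 0.474 for Adam17 and 0.274 to 0.465 for Adam10. Without background correction Adam10 was at 0.31, over 1.5 times smaller. Fibroblast and meningeal markers were higher in HoxA5 tumours beside these genes. Their list mean was 10.13 and 8.73 in HoxA5 tumours against 6.24, 7.16, 6.61 and 7.90 in mCherry 1 to 4. Of these markers 4 of 6 passed as higher (median 2.66), against 1.21% of all genes. So did 3 of 6 proliferation genes (median 2.31). The part of both marker lists in the levels of the release genes was not tested.

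Genes that restrain the receptors had a median difference of -0.093. Of 10 measured, 0 passed in limma, against 5.85% of all genes, and 2 had an unadjusted p under 0.05, against 24.6%. Lrig1, a membrane protein that promotes loss of ErbB receptors, was at 9.13 and 9.29 in HoxA5 tumours and at 10.01, 9.79, 10.28 and 9.49 in mCherry 1 to 4. Both HoxA5 tumours lay below all mCherry tumours, as for 17.2% of all genes, and the difference was -0.69 (SE 0.288, adjusted p = 0.182). Socs4, a ubiquitin ligase adaptor, differed by 0.85 (adjusted p = 0.201) and the phosphatase Ptpn1 by 0.73 (adjusted p = 0.280).

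Of 15 measured adaptor genes (median 0.52) 0 passed in limma, against 5.85% of all genes. An unadjusted p under 0.05 was found for 4 of the 15, against 24.6%. Grb7, an adaptor that binds Erbb2, was at 5.81 and 5.71 in HoxA5 tumours and at 7.61, 7.46, 8.42 and 6.30 in mCherry 1 to 4, a difference of -1.69 (SE 0.526, adjusted p = 0.0876). Both HoxA5 tumours lay below all mCherry tumours, as they did for 17.2% of all genes. With uncorrected background Grb7 stood at -0.80, and at -0.83 in the values the authors deposited, over 1.5 times smaller. Vav2, a guanine nucleotide exchange factor, differed by 1.01 (adjusted p = 0.139) and Shc1, which links receptors to Ras, by 0.78 (adjusted p = 0.180). Without mCherry 4, where 19.9% of all genes passed, Grb7 passed at -2.08 (adjusted p = 0.00701) and Vav2 at 1.28 (adjusted p = 0.0163). With any other array left out neither passed, at adjusted p-values from 0.130 to 0.327 for Grb7 and 0.194 to 0.468 for Vav2.

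Among 12 measured genes of the Ras, MAPK, PI3K and STAT arms 0 passed in limma, against 5.85% of all genes. The median of the 12 was 0.42, and 2 of them had an unadjusted p under 0.05, against 24.6%. Pik3r1, a regulatory subunit of PI3 kinase, differed by 0.88 (adjusted p = 0.142) and by 1.04 without mCherry 4, where it passed (adjusted p = 0.0473) as 19.9% of all genes did. It did not pass with any other array left out (adjusted p = 0.122 to 0.415). Stat5a differed by 0.71 (adjusted p = 0.198) in its brightest probe. Its second tested probe, detected on 5 arrays, differed by 0.13 (adjusted p = 0.860 among all probes). The Raf kinase Araf differed by 0.77 (adjusted p = 0.204) in its brightest probe, but its 4 tested probes ran from -0.97 to 0.89 and disagreed in direction. Over the 5 lists together, 1 of 48 measured genes passed, against 5.85% of all genes. Of the 48, 14 (29.2%) lay above the mCherry range in both HoxA5 tumours, against 18.3% of all genes. A further 5 (10.4%) lay below it, against 17.2%, so that 19 (39.6%) lay outside, near the 35.5% of all genes.

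**Figure D4:**
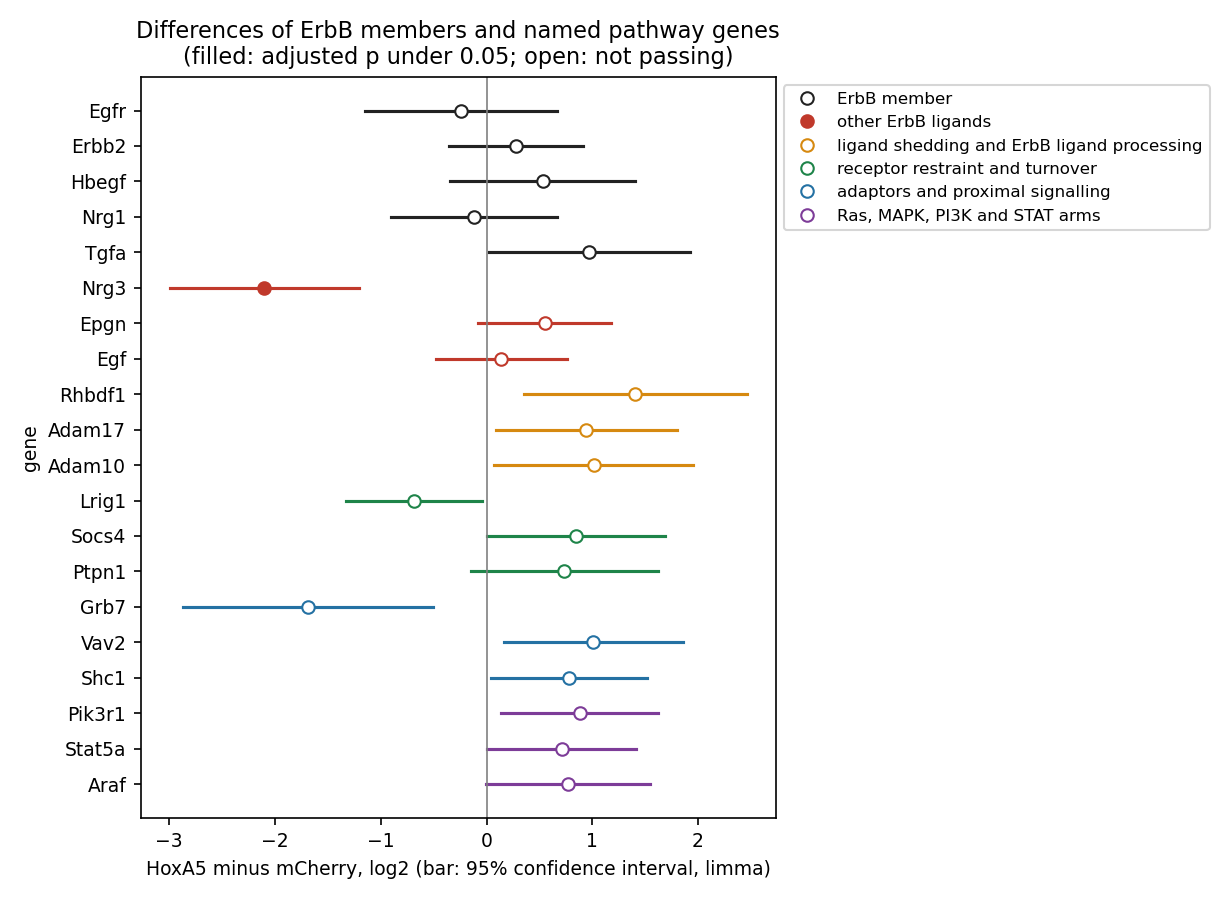
Differences between HoxA5 and mCherry tumours on the log2 scale for the 5 tested ErbB members and the 15 named genes of the 5 pathway lists, with 95% confidence intervals from limma. Nrg3 is the filled point, at -2.10, and the other points are open because their adjusted p did not pass.

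The profiles closest to each tested receptor were found from the root mean square difference of centred values over the 6 tumours. For Egfr, whose own values varied by 0.416 around their mean, these were Gcnt2 (0.0546), Dync1h1 (0.105) and Zfp335 (0.113). For Erbb2, which varied by 0.240, they were Gipc1 (0.0445), Supt3 (0.0529) and Rdh1 (0.0620). These matches were picked from all 12242 genes over 6 points, and nothing is read from them.

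Because the delivered factor is a homeodomain protein, RefSeq promoters of the members were read for TAAT, the core letters that many homeodomains bind. The promoter table for GRCm38.p6 held windows of 6 of the 10 members and none of Erbb3, Ereg, Hbegf and Nrg1, and the 250 bases before the start were searched on both strands, as TAAT or its reverse complement ATTA, which can overlap each other. Of these 6 members, 2 (Egfr and Areg) held the letters, against 54.9% of 32851 promoter windows. Egfr (chr11:16751953-16752202, plus strand) is shown as the tested receptor that held the letters and Tgfa (chr6:86194972-86195221, plus strand) as the member with an unadjusted p under 0.05, with matches in capitals.
Egfr: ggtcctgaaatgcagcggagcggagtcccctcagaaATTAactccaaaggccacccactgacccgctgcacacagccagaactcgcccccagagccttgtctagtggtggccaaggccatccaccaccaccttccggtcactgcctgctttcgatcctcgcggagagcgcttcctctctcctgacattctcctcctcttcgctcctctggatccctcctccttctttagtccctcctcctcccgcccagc
Tgfa: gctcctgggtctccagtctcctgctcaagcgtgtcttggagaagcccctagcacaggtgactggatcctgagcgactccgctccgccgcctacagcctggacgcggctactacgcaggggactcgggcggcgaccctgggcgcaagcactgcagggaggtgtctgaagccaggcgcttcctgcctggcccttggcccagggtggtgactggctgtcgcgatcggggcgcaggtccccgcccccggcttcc
The Egfr window holds 1 match, which begins 214 bases before the start, and the Tgfa window holds 0. A match is a description of the letters and not of a bound site, and the absence of one says only that these letters are not in this window.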

How the data were processed

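Biotin-labelled total RNA of 6 tumours was measured on 6 arrays. The authors deposited an intensity per probe and array, not normalized between arrays per the file name, on a linear scale with a lowest value of 102.5. Each intensity column is followed by detection p-values, per the file headers. They also deposited log2 values of the same 45281 probes, for which the submitters' processing notes name limma. Those log2 values rank the probes as the intensities do on every array (Spearman correlation 1), have a median of 7.29 on each array and differ from log2 of quantile-normalized intensities by at most 0.135. Their scale is therefore log2 without centring of genes, and their background step is unknown. Scanner summarization, slide and scan date are not given in the sources used here.

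Intensities were background-corrected, quantile-normalized and logged with neqc of limma 3.58.1 (R 4.3.3), with an offset of 16, which pulls differences of dim probes towards 0. A probe was kept with 1 gene symbol (34885 probes) that was detected (p under 0.05) on 2 or more arrays, which left 19479 probes. A gene was represented by its brightest probe. Groups followed the titles and were compared in limma (lmFit, then eBayes with trend) with Benjamini-Hochberg adjustment over 12242 genes. The fit was tested on simulated data of this design, with independent noise for each gene. There 56.9% of 65 genes changed by 2 on the log2 scale were called and 7.81% of 64 changed by 1, with 6 false calls. A smaller share of genes was changed there than was called in these data, so these rates may not carry over. The number of arrays limits the precision.

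The members and lists were chosen with earlier results of these data known. Named genes are all 10 members, the pathway genes that pass, the 3 further genes of each list with the smallest p, and the 3 genes closest to each tested receptor. The pathway lists cover other ligands, ligand release, receptor restraint, adaptors and the Ras, MAPK, PI3K and STAT arms. Marker lists were used to read tissue composition. Alternatives were other background, scaling, filter, probe, variance and weight settings, the authors' values, the replicate number and sex as blocks, and leaving out each array. Sex was read from Xist and Eif2s3y, with 1 male and 1 female tumour in the HoxA5 group and 2 of each in the mCherry group.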

Additional observations from a re-analysis of the deposited data

Results flagged for a closer look

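In the mCherry group, Erbb2 was at 4.75 in mCherry 2, far from the other 3 tumours of the group, which lay between 5.29 and 5.34. The gap to the nearest tumour exceeded the 95% limit of Dixon's test for 4 samples. The probe was not detected in mCherry 2. Of 39 values examined in this way (detected member probes, named pathway genes and list means), 1 passed the limit; a test at that level flags some by chance.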

How the results depend on the processing

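The count of ErbB members that passed was 0 in limma under all 16 alternatives, including the fit without a detection filter, in which 9 members were tested. The count over all genes, 716, was 1746 with array weights and 338 with sex as a block, and ran from 2 (without HoxA5 2) to 2408 (without mCherry 4) when 1 array was left out. It was 119 without HoxA5 1, 171 without mCherry 1 and 247 without mCherry 2. With median scaling the median difference of all genes moved from 0.072 to 0.20, and 265 genes were higher and 437 lower, against 148 and 568, while Tgfa was at 1.05, Hbegf at 0.72, Erbb2 at 0.32 and Egfr at -0.081. Differences of dim probes shrank without background correction and in the authors' deposited values, to 0.076 and 0.080 for Erbb2, 0.31 and 0.33 for Adam10 and 0.22 and 0.23 for Stat5a. Array weights gave 642 higher and 1104 lower. The difference of Egfr turned to 0.235 with the mean of its probes, and its probes 3 and 4 alone gave 0.58 and 0.72. With 1 array left out, Nrg1 ran from -0.40 to 0.17 and Egf from -0.12 to 0.41, turning without HoxA5 1 (Nrg1), mCherry 2 (Nrg1, 0.026) and HoxA5 2 (Egf). The cause of these turns was not tested. Nrg3 was at -1.74 with the mean of its probes (adjusted p = 0.0574). Array weights brought Rhbdf1 (1.50, adjusted p = 0.0313) and Grb7 (-1.80, adjusted p = 0.0256) past the threshold.

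With the replicate number as a block, 905 genes and 0 members passed, and Rhbdf1 did too (1.47, adjusted p = 0.0321). The labels give no reason to pair these tumours. Deviations of same-numbered tumours from their group means correlated across genes at -0.36 and -0.24. In a group of 2 the deviations mirror each other, so these values are not independent. They cannot tell whether the numbers pair the samples. The 9 undetected member probes give no information on change. The 4 members tested only without a detection filter were at or near background, so their not passing says nothing about change. With detection asked on all 6 arrays, 3 members were tested.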
